A study of Mus musculus with 6 samples.

Results

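Mammalian neurons make peptide transmitters as large precursors, and the 10 genes described here encode the proteins that cut, trim and amidate these precursors and pack the products into dense-core granules. They were chosen by name: the prohormone convertases Pcsk1 and Pcsk2, the convertase-binding proteins Pcsk1n and Scg5, carboxypeptidase E (Cpe), the amidating enzyme Pam and the granins Chga, Chgb, Scg2 and Scg3. All 10 were among the 9583 genes of the deposited table. RNA was taken from dissociated preoptic area neurons of the hypothalamus of naive wild-type C57Bl/6J mice aged 6 to 14 weeks. Calcium imaging during cooling to about 10°C was used to sort them, with the top 7% by response amplitude gathered as cold-sensitive and the bottom 14% as cold-insensitive. There were 6 libraries, 3 for each type, and each is a pool of about 100 to 200 hand-aspirated neurons from several isolations, so a library can mix animals and neuron subtypes. All neurons of both types had been dissociated, cultured on coverslips, loaded with a calcium dye and cooled before collection. By the methods, imaging ended with a depolarizing high-potassium solution, also before collection.

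In peptidergic neurons, precursors enter the regulated secretory pathway together with the granins, acidic proteins that aggregate as the granule matures. Convertases then cut the precursor after pairs of basic residues, Cpe removes the exposed basic residues, and Pam turns a carboxy-terminal glycine into the amide that many neuropeptides need to act on their receptors. Pcsk1n encodes proSAAS, a secreted protein that binds and inhibits the Pcsk1 enzyme, while Scg5 encodes the chaperone through which the Pcsk2 enzyme matures. Peptides released from such granules in the preoptic area act alongside fast transmitters in the control of body temperature, sleep and reproduction.

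Some promoters of the members held the same short elements, though none of the elements searched was in all of them. Of these promoters 4 are shown. They belong to both convertase-system genes that differed between the neuron types and to the granins that share TGACGTCA with Pcsk1. RefSeq windows on GRCm38.p6, from 250 bases before to 50 bases after an annotated start, were found for 9 of the 10 members. Cpe had none. Both strands were searched for TGACGTCA (the full cAMP response element), for TGACG (its shorter core, which every TGACGTCA contains) and for GGGCGG (the GC box). Capitals mark these 3 motifs on either strand in each sequence, which is written 5′ to 3′ on the strand of the gene. The Pcsk1 window is chr13:75089607-75089906 on the plus strand and the Pcsk1n window is chrX:7919572-7919871 on the plus strand. The other sequences are upstream stretches of 100 bases, chr1:79440047-79440146 on the minus strand for Scg2 and chr2:132781522-132781621 on the plus strand for Chgb.
Pcsk1: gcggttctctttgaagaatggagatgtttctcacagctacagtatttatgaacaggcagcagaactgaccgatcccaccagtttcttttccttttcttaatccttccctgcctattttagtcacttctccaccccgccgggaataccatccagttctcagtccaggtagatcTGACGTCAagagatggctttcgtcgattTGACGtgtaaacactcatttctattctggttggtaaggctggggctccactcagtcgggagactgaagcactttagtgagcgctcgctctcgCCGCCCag
Pcsk1n: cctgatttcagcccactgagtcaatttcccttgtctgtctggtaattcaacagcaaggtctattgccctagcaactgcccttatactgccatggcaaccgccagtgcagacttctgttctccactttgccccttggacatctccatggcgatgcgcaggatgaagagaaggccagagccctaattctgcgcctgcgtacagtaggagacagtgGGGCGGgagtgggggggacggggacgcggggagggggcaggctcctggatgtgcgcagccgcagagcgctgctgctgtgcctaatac
Scg2: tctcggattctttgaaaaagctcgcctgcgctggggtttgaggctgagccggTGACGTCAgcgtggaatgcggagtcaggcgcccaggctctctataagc
Chgb: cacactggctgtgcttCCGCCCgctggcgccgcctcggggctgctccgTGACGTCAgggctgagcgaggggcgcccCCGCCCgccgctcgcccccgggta

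TGACGTCA stood in 3 of the 9 matched members, with its first base at -78 in Pcsk1, -72 in Chgb and -68 in Scg2 relative to the start. It stood in 1.79% of all 32851 windows and in 2.03% of the 27025 genes with a window. The core TGACG was found in 7 of the 9 (Pcsk1, Pcsk2, Scg5, Chga, Chgb, Scg2 and Scg3), against 23.0% of genes. GGGCGG was also found in 7 of the 9, against 38.2% of genes. Pcsk1n held neither TGACGTCA nor TGACG in its window and a single GGGCGG at -37. The members holding TGACGTCA did not share a difference between the neuron types, since Pcsk1 was called higher in cold-sensitive neurons whereas Chgb and Scg2 were not called. These matches describe letters and not occupied sites.

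Total counts were 3316441 to 6818554 per library in cold-sensitive and 5276233 to 5712983 in cold-insensitive neurons, and the members had between 223 and 41711 counts each. Levels are given as RPM, reads scaled to the effective library size of each sample. Raw counts of all 9583 genes were fitted with edgeR (quasi-likelihood F-test), and a difference was called at a Benjamini-Hochberg adjusted p of at most 0.05. In cold-sensitive neurons 32 of all genes (0.334%) were called higher and 80 (0.835%) lower, 1.17% in all, and the median log2 fold change was 0.001. Of the 10 neuronal markers examined, 10 were in the table, with summed levels of 7098 to 8857 RPM in cold-sensitive and 5969 to 8491 RPM in cold-insensitive libraries, and 0 of 10 were called (2 were higher at an unadjusted p under 0.05). The table holds 0 of 8 microglial and 0 of 8 endothelial and mural markers. In pooled neurons a lower level can come from fewer cells of a kind or from less RNA per cell, and these cannot be told apart.

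Of the 10 members, Pcsk1 was called higher in cold-sensitive neurons and Pcsk1n was called lower, that is, 1 of 10 in each direction against 0.334% and 0.835% of all genes. The transcripts of an enzyme and of the protein that binds and inhibits it thus differed in opposite directions. Only RNA was measured. With 1 library left out, Pcsk1 kept its call in 4 of 6 fits and Pcsk1n in 2. The other 8 members were not called. An unadjusted p under 0.05 was reached by 3 members (Pcsk1, Pcsk2 and Pcsk1n), against 10.7% of all genes. In the 7 members other than Pcsk1, Pcsk2 and Pcsk1n, the 95% interval of the log2 fold change lay between -0.72 and 0.80. The cold-sensitive and cold-insensitive libraries did not overlap for 2 members, against 16.0% of all genes. In Pcsk1 every cold-sensitive library was above every cold-insensitive library (7.85% of all genes), and in Pcsk1n below (8.20%). The median log2 fold change of the members was 0.24.

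**Figure D1:**
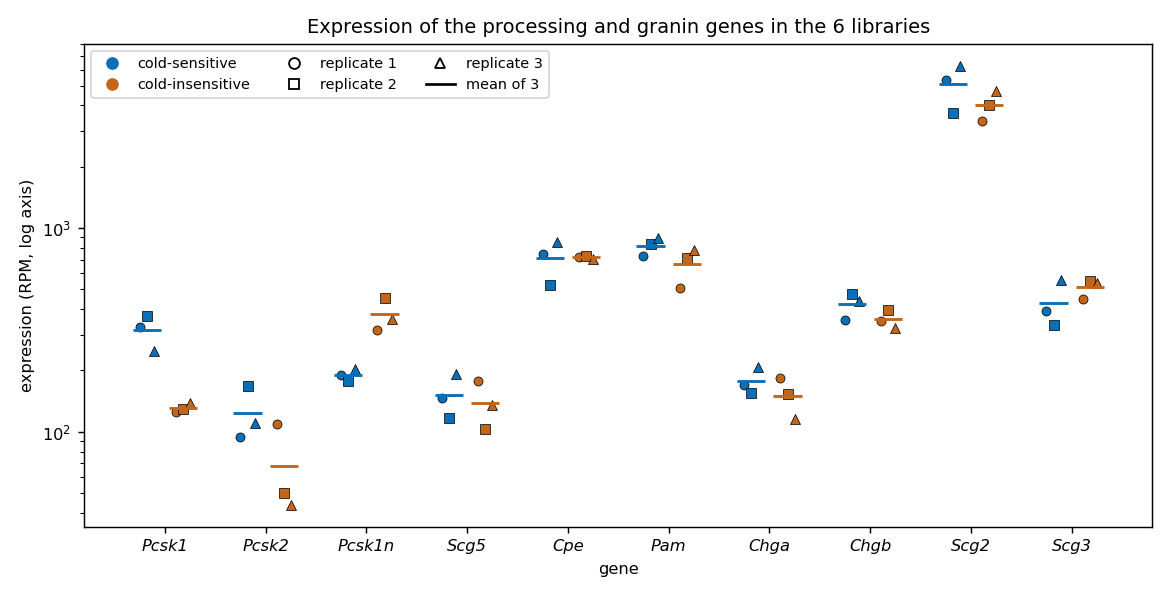
RPM of the 10 members in each library, with cold-sensitive libraries on the left and cold-insensitive libraries on the right for each gene. Marker shapes give the replicate and horizontal lines the mean of 3 libraries. For Pcsk1 the cold-sensitive libraries (250 to 372 RPM) sit above the cold-insensitive ones (125 to 139 RPM), for Pcsk1n they sit below, and for the other 8 genes the types overlap.

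Pcsk1, which makes the first cuts in many precursors, had 327, 372 and 250 RPM in cold-sensitive replicates 1 to 3, against 125, 130 and 139 RPM in the cold-insensitive replicates of the same numbers. The lowest cold-sensitive library was thus above the highest cold-insensitive one, and the cold-sensitive library was the higher of each replicate number (3 of 3). Mean levels were 316 ± 61.4 RPM in cold-sensitive neurons and 131 ± 6.90 RPM in the cold-insensitive type (SD, n = 3 each), a 2.41-fold difference with a 95% interval of 1.71 to 3.39. The log2 fold change was 1.27 (SE 0.24, adjusted p = 0.00652, edgeR). Pcsk1 ranked 26 by adjusted p among the 9583 genes. The gene lies at chr13:75089826-75134861 on the plus strand (GRCm38, ENSMUSG00000021587.5), and no other annotated exon overlaps its exons. The adjusted p was 0.0619 without cold-sensitive replicate 2 and 0.0629 without cold-insensitive replicate 2, with log2 fold changes of 1.14 and 1.26.

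Pcsk2, the second neuronal convertase, which acts further along granule maturation, had 93.8, 167 and 111 RPM in cold-sensitive libraries and 109.5, 50.2 and 43.8 RPM in cold-insensitive libraries. Cold-insensitive replicate 1 lay within the cold-sensitive range, and replicates 2 and 3 lay below it. The cold-sensitive mean was 124 ± 38.3 RPM and the cold-insensitive mean 67.8 ± 36.3 RPM (SD, n = 3 each). The log2 fold change of 0.87 had a 95% interval of 0.14 to 1.59 and an unadjusted p of 0.0214, which became 0.339 after adjustment in edgeR, so the difference was not called. Its coefficient of variation was 31.0% in cold-sensitive and 53.4% in cold-insensitive libraries, the second value being the widest of any member and type. Short stretches of Pcsk2 exons (260 and 99 bases) are shared with the antisense transcripts Pcsk2os1 and Pcsk2os2, and the counting did not use strand.

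Pcsk1n had 190.5, 178 and 204 RPM in cold-sensitive libraries, against 317.5, 456 and 358 RPM in cold-insensitive libraries. Again the types did not overlap, and the cold-sensitive library was the lower of each replicate number (3 of 3). The cold-sensitive mean was 191 ± 12.8 RPM and the cold-insensitive mean 377 ± 71.1 RPM (SD, n = 3 each). The log2 fold change was -0.98 (SE 0.23, 95% interval -1.45 to -0.52, adjusted p = 0.0327, edgeR), a level 1.97-fold lower in cold-sensitive neurons. The Pcsk1n gene lies at chrX:7919822-7924410 on the plus strand (ENSMUSG00000039278.10). Of its exon bases, 135 (6.16%) overlap Eras on the opposite strand, a gene that is not in the table. The call was lost without cold-sensitive replicate 2 (adjusted p = 0.120), cold-sensitive replicate 3 (0.0700), cold-insensitive replicate 2 (0.285) or cold-insensitive replicate 3 (0.0711), with log2 fold changes of -0.94, -1.03, -0.82 and -1.02 in that order.

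Scg5 had 147, 117 and 192 RPM in cold-sensitive and 178, 103 and 136 RPM in cold-insensitive libraries. The ranges overlapped almost entirely, and the log2 fold change was 0.13 (95% interval -0.45 to 0.71, adjusted p = 0.930, edgeR). It thus gave no call in either direction beside the 1.97-fold lower Pcsk1n.

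Some RNA of other cell types differed between the same libraries. Mbp, a myelin protein gene of oligodendrocytes, had 419, 143 and 74.2 RPM in cold-sensitive replicates 1 to 3 and 195, 48.6 and 16.1 RPM in the cold-insensitive ones (adjusted p = 0.382), the cold-sensitive library being the higher of each replicate number (3 of 3). The oligodendrocyte precursor markers in the table (2 of 8, Pdgfra and C1ql1) went in opposite directions. Pdgfra averaged 11.9 RPM in cold-sensitive and 354.5 RPM in cold-insensitive libraries. It was called lower in cold-sensitive neurons (log2 fold change -4.85, adjusted p = 1.55e-09, edgeR). C1ql1 averaged 10.1 RPM in cold-sensitive and 5.18 RPM in cold-insensitive libraries and was not called (log2 fold change 0.95, adjusted p = 0.750, edgeR). The 2 markers summed to 17.7 to 27.3 RPM in cold-sensitive and 339 to 370 RPM in cold-insensitive libraries, in the cold-insensitive ones nearly all of it Pdgfra. Astrocyte markers (4 of 10) summed to 207 to 235 RPM in cold-sensitive and 246.5 to 459 RPM in cold-insensitive libraries, with 0 of 4 called. Of these, Slc1a2 had 291, 85.3 and 74.6 RPM in cold-insensitive replicates 1 to 3, against 83.7, 84.3 and 98.9 RPM in the cold-sensitive ones. Its log2 fold change was -0.76, and 0.15 without cold-insensitive replicate 1. Glul averaged 74.7 RPM in cold-sensitive and 121 RPM in cold-insensitive libraries. The defining markers of these lists that are missing from the table cannot be read as 0, because genes without counts in some library had been filtered out by the authors. The part of the oligodendrocyte, oligodendrocyte precursor and astrocyte markers in either member's difference was not tested.

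Expressed against each other within a library, Pcsk1n and Pcsk1 gave a ratio that does not depend on scaling between libraries. Pcsk1n had 0.583, 0.480 and 0.815 counts per Pcsk1 count in cold-sensitive replicates 1 to 3, against 2.54, 3.51 and 2.58 in the cold-insensitive ones. Pcsk1 counts outnumbered Pcsk1n counts in 3 of 3 cold-sensitive libraries and in 0 of 3 cold-insensitive ones. The difference of the mean log2 ratios was -2.22, a 4.66-fold lower ratio in cold-sensitive neurons, with an exact two-sided permutation p of 0.1, the smallest that 3 against 3 libraries allow (0.3 after adjustment over the 6 ratios). The ratio rests on the same counts as the 2 calls above and is no further evidence for them. Per base of exon (the union of all annotated exons), Pcsk1n stood above Pcsk1 in 6 of 6 libraries. The factor was 1.49, 1.23 and 2.08 in cold-sensitive and 6.49, 8.96 and 6.60 in cold-insensitive libraries.

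For the other convertase, Scg5 had 1.57, 0.698 and 1.74 counts per Pcsk2 count in cold-sensitive libraries and 1.62, 2.06 and 3.09 in cold-insensitive ones, with overlapping ranges (exact permutation p = 0.2, adjusted 0.4). Pcsk1 had 3.49, 2.23 and 2.26 counts per Pcsk2 count in cold-sensitive libraries and 1.14, 2.59 and 3.17 in cold-insensitive ones (exact permutation p = 0.8, adjusted 0.96). Cold-insensitive replicate 1, the library with the most Pcsk2 of its type, gave the lowest of these 6 values.

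**Figure D2:**
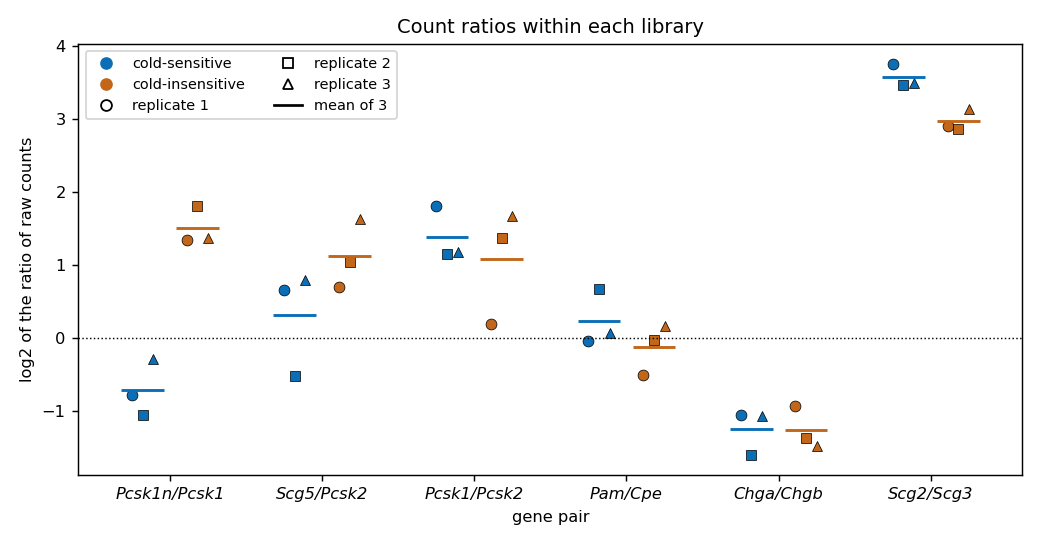
Log2 of the ratio of raw counts of 2 members within each library, for the 6 ratios compared, with cold-sensitive libraries left of cold-insensitive libraries and horizontal lines at the mean of 3. The Pcsk1n/Pcsk1 ratio is below 0 in the cold-sensitive libraries (mean -0.71) and above 0 in the cold-insensitive libraries (mean 1.51), and Scg2/Scg3 is the only other ratio whose types do not overlap.

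Cpe, the carboxypeptidase that trims the cut ends, had 750.0, 527 and 857 RPM in cold-sensitive and 721, 729.5 and 703 RPM in cold-insensitive libraries. The cold-insensitive libraries lay within a narrow band (CV 1.90%) inside the wider cold-sensitive range (CV 23.7%). The log2 fold change of -0.01 had a 95% interval of -0.45 to 0.43 (adjusted p = 0.993, edgeR). Pam had 729.7, 836 and 895 RPM in cold-sensitive and 508, 715 and 784 RPM in cold-insensitive libraries, the cold-sensitive library being the higher of each replicate number (3 of 3) with overlapping ranges. Its log2 fold change was 0.29 (95% interval -0.15 to 0.74, adjusted p = 0.702). The Pam/Cpe count ratio was 0.973, 1.59 and 1.04 in cold-sensitive and 0.704, 0.980 and 1.12 in cold-insensitive libraries, which overlap (exact permutation p = 0.5, adjusted 0.75).

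None of the 4 granins was called by edgeR, and 0 of 4 had an unadjusted p under 0.05. DESeq2 and limma called only Pcsk1 and Pcsk1n among the members. Scg2, the precursor of secretoneurin, was the most abundant member and ranked 7 by mean RPM in the whole table. It had 5310, 3678 and 6249 RPM in cold-sensitive and 3339, 4004 and 4719 RPM in cold-insensitive libraries. Cold-sensitive replicate 2 lay inside the cold-insensitive range while replicates 1 and 3 lay above it. The log2 fold change was 0.34 (95% interval -0.12 to 0.80, adjusted p = 0.657).

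Chga, the chromogranin after which the family is named, had 169, 156 and 209 RPM in cold-sensitive and 183, 153 and 116 RPM in cold-insensitive libraries, with a log2 fold change of 0.24 (adjusted p = 0.829). Chgb, the other chromogranin, had 352, 475 and 439 RPM in cold-sensitive and 351, 396 and 323 RPM in cold-insensitive libraries. The cold-sensitive library was the higher of each replicate number for Chgb (3 of 3), by less than 1 RPM in replicate 1, and its log2 fold change was 0.24 (adjusted p = 0.782). There were 0.482, 0.328 and 0.476 Chga counts per Chgb count in cold-sensitive and 0.522, 0.385 and 0.357 in cold-insensitive libraries. This ratio overlapped between the types (exact permutation p = 1).

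Scg3, a granin that binds chromogranin A and cholesterol-rich granule membranes, had 392, 333 and 556 RPM in cold-sensitive and 447, 552 and 537 RPM in cold-insensitive libraries (log2 fold change -0.26, 95% interval -0.72 to 0.20, adjusted p = 0.770). The log2 fold changes of Scg2 and Scg3 had opposite signs, and neither was called. The Scg2/Scg3 count ratio was 13.5, 11.0 and 11.2 in cold-sensitive libraries, against 7.47, 7.25 and 8.79 in cold-insensitive libraries. These ranges did not overlap, and the difference of the mean log2 ratios was 0.61, a 1.52-fold higher ratio in cold-sensitive neurons (exact permutation p = 0.1, the smallest possible, adjusted 0.3).

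**Figure D3:**
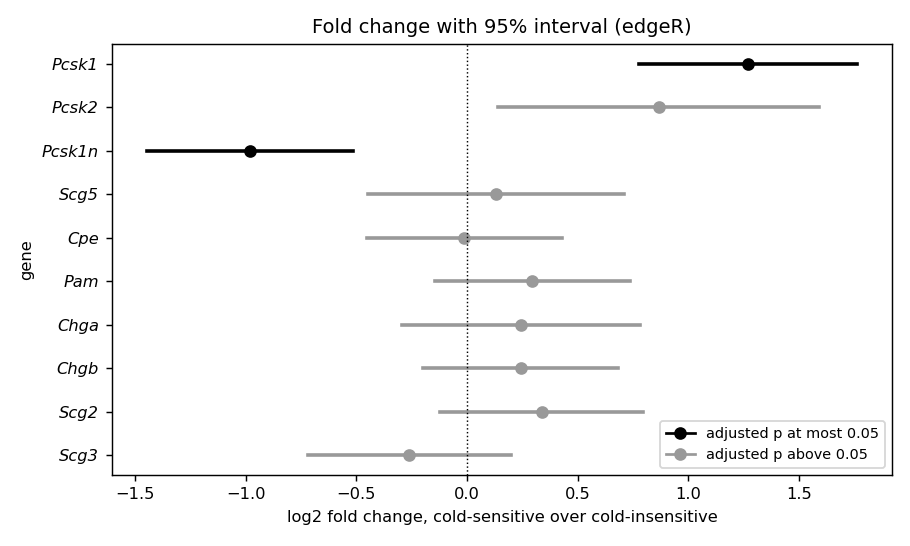
Log2 fold change (cold-sensitive over cold-insensitive) of the 10 members with the 95% interval from edgeR, black where the adjusted p is at most 0.05 and grey otherwise. Pcsk1 at 1.27 and Pcsk1n at -0.98 are black, and the intervals of all others but Pcsk2 include 0.

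Compared per kilobase of exon (RPKM, mean over the 6 libraries), the members spanned more than 2 orders of magnitude. The length used was the union of all annotated exons of a gene. It can exceed the length of the transcripts expressed, so the order depends on this choice. Scg2 led with 1809 RPKM, followed by Cpe with 273.9, Scg3 with 171.5, Chgb with 142, Pcsk1n with 129.5, Scg5 with 92.7, Pam with 62.6, Chga with 59.6, Pcsk1 with 39.9 and Pcsk2 with 12.1 RPKM. The ranges over libraries did not overlap between Scg2 and Cpe or between Pcsk1 and Pcsk2, and every other pair of neighbours overlapped. The genes of both convertases, the enzymes that start processing, thus had the lowest mean RNA levels per length of all members. They stood below the genes of their binding proteins on this measure. Scg2 stood above Cpe and Pcsk1 above Pcsk2 in 6 of 6 libraries, whereas the order of Chgb and Pcsk1n held in 3 of 6.

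The 10 members held 0.860%, 0.671% and 0.975% of all counts in cold-sensitive replicates 1 to 3 and 0.653%, 0.745% and 0.758% in the cold-insensitive ones. The mean share was 0.835% ± 0.154 in the cold-sensitive type and 0.719% ± 0.0572 in the cold-insensitive type (SD, n = 3 each, exact permutation p = 0.3). Scg2 alone gave 53.8% to 62.8% of the members' counts in cold-sensitive and 53.2% to 60.1% in cold-insensitive libraries. Without it the share was 0.320%, 0.310% and 0.364% in cold-sensitive and 0.306%, 0.336% and 0.303% in cold-insensitive libraries (exact permutation p = 0.5). Within types the members varied unevenly. Cold-sensitive replicate 3 was the highest of the 6 libraries for 6 members (Scg5, Cpe, Pam, Chga, Scg2 and Scg3), against 15.4% of all genes, and Pcsk1 and Pcsk1n were not among these 6.

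The genes whose profile over the 6 libraries was most like that of Pcsk1 were Zic2, Hfm1 and Cacna2d1. Likeness was the root mean square difference in log2(RPM + 1) after centring each gene, which was 0.13, 0.15 and 0.17 for these genes and 0.80 for the median gene. Because likeness was taken over these same libraries, the choice itself gives these genes fold changes near that of Pcsk1. Cacna2d1, which encodes an auxiliary subunit of voltage-gated calcium channels, was called higher. It had a mean of 524 RPM in cold-sensitive and 195 RPM in cold-insensitive neurons (log2 fold change 1.43, adjusted p = 0.00118, edgeR). Zic2, at a mean of 40.3 RPM in cold-sensitive and 17.3 RPM in cold-insensitive neurons, and Hfm1, at 28.9 RPM in the cold-sensitive and 12.5 RPM in the cold-insensitive type, were not called (adjusted p = 0.373 and 0.490).

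In the wider pathway, edgeR called 1 of 15 genes for vesicle transport, docking and release and 4 of 14 neuropeptide precursors. The share called over all genes was 1.17%. The lists were chosen with earlier results of these data known. Of the other proprotein convertases, 5 of 7 were in the table and 0 were called by edgeR, DESeq2 or limma (1 was lower at an unadjusted p under 0.05, in edgeR). Furin, a convertase of the constitutive pathway, averaged 45.9 RPM in cold-sensitive and 53.1 RPM in cold-insensitive neurons. Mbtps1, a protease of the Golgi that activates membrane-bound transcription factors, averaged 80.0 RPM in cold-sensitive and 93.5 RPM in cold-insensitive neurons. Of the other trimming and modifying enzymes, 9 of 12 were in the table and 0 were called by any of these tools (1 lower at an unadjusted p under 0.05). The most abundant of them were Prepl, a serine hydrolase of the prolyl oligopeptidase family (mean 982 RPM in cold-sensitive and 752.5 RPM in cold-insensitive neurons, adjusted p = 0.528), and the carboxypeptidase Cpd (190.0 RPM in cold-sensitive and 231 RPM in cold-insensitive neurons, adjusted p = 0.767).

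Of 22 genes listed for the formation of dense-core vesicles, 19 were in the table, 0 were called by edgeR, DESeq2 or limma, 0 had an unadjusted p under 0.05 in edgeR, and their median log2 fold change was 0.03. Vgf, a secreted granin-like protein, averaged 1147 RPM in cold-sensitive and 1286 RPM in cold-insensitive neurons. Ptprn, a receptor-like protein of the granule membrane, averaged 952 RPM in cold-sensitive and 969 RPM in cold-insensitive neurons.

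Among genes for vesicle transport, docking and release, 15 of 20 were in the table. Rab27b, a small GTPase that tethers secretory vesicles near the plasma membrane, was called higher, and none was called lower by edgeR. At an unadjusted p under 0.05 in edgeR, 4 were lower and 2 higher, against 10.7% of all genes in either direction. Rab27b had 179, 255 and 285 RPM in cold-sensitive libraries, against 72.4, 93.2 and 67.4 RPM in cold-insensitive libraries, with no overlap. Its log2 fold change was 1.63 (SE 0.27, adjusted p = 0.00223, edgeR), and the call was kept without any single library (adjusted p at most 0.0264). DESeq2 called 4 genes of this list. The most abundant members of the list were Syt4, a synaptotagmin of dense-core vesicles (mean 2762 RPM in cold-sensitive and 2562 RPM in cold-insensitive neurons), and the vesicle motor Kif1a (1483 RPM in cold-sensitive and 1355 RPM in cold-insensitive neurons), neither called.

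Of 43 neuropeptide precursors listed, on which this machinery acts, 14 were in the table. Adcyap1 was called higher and Sst, Gal and Pnoc were called lower in cold-sensitive neurons, that is, 4 of 14 against 1.17% of all genes. The median log2 fold change of the 14 was -0.48. Sst averaged 1.99 RPM in cold-sensitive and 563 RPM in cold-insensitive neurons, and Gal averaged 144 RPM in cold-sensitive and 368 RPM in cold-insensitive neurons. The cold-sensitive libraries held 1.80 to 2.15 RPM of Sst, near the lowest level in the table (1.01 RPM). With a minimum of 20 counts in every library Sst was left out, and 3 precursors were called. Adcyap1, the precursor of pituitary adenylate cyclase-activating peptide, averaged 401 RPM in cold-sensitive and 93.6 RPM in cold-insensitive neurons (adjusted p = 0.00652), and was not called with a robust fit (adjusted p = 0.390) or with DESeq2 (0.110). Pnoc, the precursor of nociceptin, had 41.4, 31.7 and 61.9 RPM in cold-sensitive libraries, against 66.3, 163 and 237.5 RPM in cold-insensitive libraries (adjusted p = 0.0205). Cold-insensitive replicate 1 was thus close to the cold-sensitive range, and the call was lost without cold-sensitive replicate 2 (adjusted p = 0.107), cold-insensitive replicate 2 (0.112) or cold-insensitive replicate 3 (0.198). The Gal call was lost without cold-sensitive replicate 2 (adjusted p = 0.165), cold-sensitive replicate 3 (0.0994) or cold-insensitive replicate 1 (0.379). Nts, with Sst 1 of the 2 most abundant precursors by mean RPM over both types, was not called (adjusted p = 0.249, edgeR). It averaged 373 RPM in cold-sensitive neurons (266, 243 and 609 RPM in replicates 1 to 3) and 218 RPM in cold-insensitive neurons. Its log2 fold change was 0.78, and 0.22 without cold-sensitive replicate 3.

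**Figure D4:**
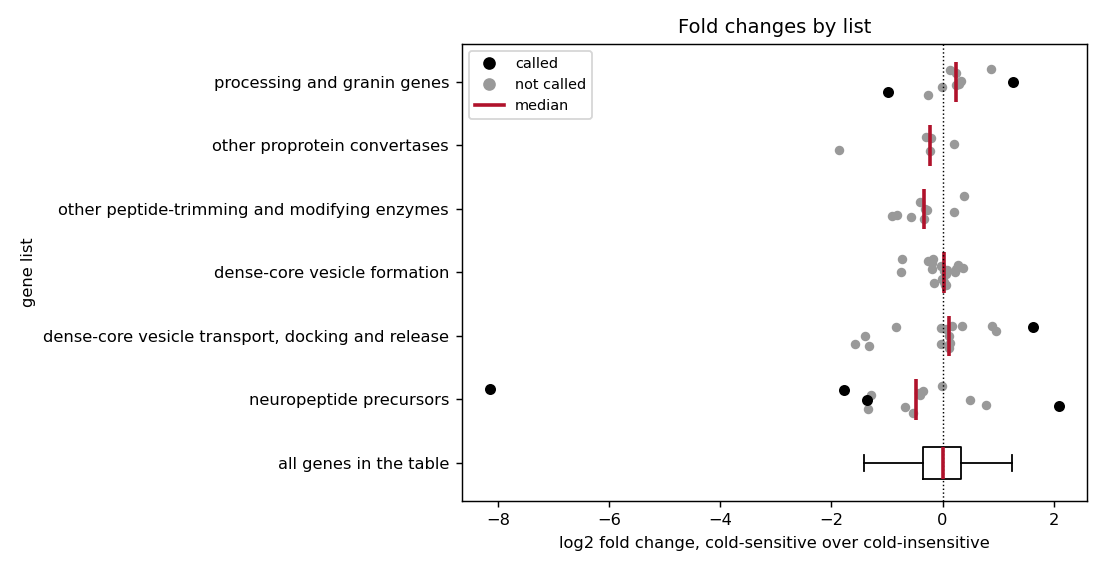
Log2 fold change (cold-sensitive over cold-insensitive) of each gene of the members and of 5 further lists of the pathway, a point per gene and a red line at the median of each list, beside a box of all 9583 genes whose whiskers enclose the central 95%. The medians of the member list (0.24) and of vesicle formation (0.03) lie near that of all genes (0.001), and the neuropeptide precursors spread the most, from -8.15 to 2.10.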

How the data were processed

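RNA of pooled preoptic area neurons was measured in 6 libraries. The deposited table holds raw counts per protein-coding gene, which the authors made with Trimmomatic 0.36, STAR 2.5.4b (GRCm38.p6) and featureCounts of Subread 1.6.2 at default settings, which ignore strand. The authors' normalized signal (counts scaled to the effective library size of each library, RPM) was recomputed here from the counts, and the deposited signal was 0.992 to 0.999 times the recomputed RPM. The deposited table leaves out genes that lacked counts, or had less than 1 RPM, in at least 1 library. Columns with the authors' means, fold change and p-value were not used.

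The test was run with edgeR 4.0.16 under R 4.3.3 (TMM, estimateDisp, glmQLFit in its legacy form, glmQLFTest, prior count 0.125) with the neuron type as the only term, since the study's methods name this test and no further term. The authors dropped genes under 1 RPM after their test, whereas the fit and adjustment here ran on the 9583 genes already filtered. The common biological coefficient of variation was 42.2%. Ratios and shares were compared by two-sided exact permutation tests over the 6 libraries. The 3 libraries per type limit precision, and p-values measure the spread between pools. The methods name a library kit for very low RNA input and report a wide range of RNA integrity. They give no value per library, so RNA quality was not set against the levels.

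By the methods, cold-sensitive and cold-insensitive neurons were collected from shared coverslips, and on that ground equal replicate numbers were treated as pairs. This is an assumption, since neither the labels nor the methods state that equal numbers share a collection. The sample numbers of both types do not run in step across all replicates. Same-numbered libraries deviated from the means of their types with correlations of only 0.0446 to 0.0586.

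RPKM and coordinates used the exons of GENCODE M21 on GRCm38, and promoters came from RefSeq. Alternatives covered DESeq2 1.42.0, limma 3.58.1, scaling, filters, the block and single libraries left out, and scripts were tested on simulated data. The members and lists were chosen with earlier results of these data known. Named genes are the members, and of each other list the called genes and the 2 most abundant, with the 3 genes most like the member with the largest fold change. A gene that this rule names is not reported here.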

Additional observations from a re-analysis of the deposited data

How the results depend on the processing

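Under the 10 alternatives that leave out no library (other scaling, a minimum of 20 counts, a robust fit, DESeq2, limma with pseudocounts of 1 or 0.5, the replicate block), Pcsk1 and Pcsk1n kept direction and call, with log2 fold changes of 1.25 to 1.28 and -1.01 to -0.96, and no other member was called. With the replicate block, adjusted p was 0.00373 for Pcsk1 and 0.0175 for Pcsk1n, and 40 genes were called higher and 114 lower. The block also moved the vesicle release list to 2 calls and changed no other member or list call, although Mbp became called (adjusted p = 0.00218). An exact permutation within pairs cannot give a ratio a p below 0.25. DESeq2 called 81 genes higher and 150 lower. Leaving out a library gave 8 to 29 genes higher and 20 to 63 lower, with 0 to 1 member called higher and 0 to 1 lower. Pcsk1 kept its call in 4 of these 6 fits and Pcsk1n in 2. The cause was not tested, but each such fit rests on 5 libraries. Without 1 library, log2 fold changes ran from -0.075 to 0.35 for Scg5, -0.17 to 0.16 for Cpe, -0.18 to 0.085 for Ptprn, -0.033 to 0.24 for Syt4, -0.057 to 0.37 for the neuronal marker Map2 and -1.08 to 0.15 for the astrocyte marker Slc1a2, so these directions were not stable. The Pcsk1/Pcsk2 difference ran from -0.14 to 0.60 and that of Chga/Chgb from -0.088 to 0.20. The Pcsk1n/Pcsk1 difference ran from -2.43 to -2.05. The other call changes were in genes outside the members. With the robust fit, Gal (adjusted p = 0.102) and Adcyap1 (0.390) lost their calls. Gal also lost it with limma, and Adcyap1 (0.110) with DESeq2. The least depth behind a member's value was 223 counts (Pcsk2 in cold-insensitive replicate 3).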
